A study of Mus musculus with 6 samples.

Results

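The genes of the tumor necrosis factor (TNF) ligand superfamily, of its receptors and of the TRAF adaptors were examined in osteoclasts cultured from mouse bone marrow cells. Members were taken by gene name from the annotation of the arrays: every name that starts with Tnfsf or Tnfrsf and a number, *Traf1* to *Traf7*, and *Tnf*, *Lta*, *Ltb*, *Ltbr*, *Fas*, *Fasl*, *Cd27*, *Cd40*, *Cd40lg*, *Cd70* and *Ngfr*. This gave 49 gene names with 84 probes among 37074 gene names with 56605 probes. Of these, 16 were ligands, 25 receptors and 7 TRAF adaptors, and the last was *Tnfsf13os*, an antisense RNA of the *Tnfsf13* locus that the rule took in by its name.

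RNA was measured on one-colour Agilent arrays from the osteoclasts of 3 Ano1fl/fl mice and of 3 littermates of the genotype Ctsk-Cre;Ano1fl/fl, after 5 days of RANKL. Both groups carried the floxed alleles of *Ano1*, the gene of a calcium-activated chloride channel, and they differed in a Cre transgene under the promoter of cathepsin K, a protease of osteoclasts. For cultures of this kind the methods give mice of 6 to 8 weeks and M-CSF at 30 ng/ml together with RANKL at 50 ng/ml. A Cre driven by an osteoclast gene acts while the cells are maturing, so the deletion need not be complete at the start of the culture. On none of the 6 arrays was the probe of *Ano1* itself well above background (scanner signals of 3.28, 3.22 and 3.91 in Ano1fl/fl and 3.23, 3.25 and 3.81 in Ctsk-Cre;Ano1fl/fl), so it could not check the labels, and the groups are named here as labelled.

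Osteoclast identity was checked on 9 marker genes. All 9 were tested, and all 9 were higher on the Ctsk-Cre;Ano1fl/fl arrays, where their summed linear signal was 494000 to 557000 against 143000 to 156000 in Ano1fl/fl. This direction is opposite to the one the study describes for osteoclast marker genes in cultures of these genotypes, and every direction given here rests on the labels of the arrays. Not every osteoclast gene was higher: *Fos* was lower, and *Nfatc1* had probes that passed in either direction, as given below with the genes that RANKL induces. Other cell types were present as well and differed between the groups. The summed signal of 12 stromal or osteoblast markers was 2050 to 3070 in Ano1fl/fl and 56900 to 95100 in Ctsk-Cre;Ano1fl/fl, that of 6 B cell markers 6280 to 7800 and 22900 to 43700, and that of 9 neutrophil markers 315000 to 331000 and 212000 to 264000. That of 6 mast cell or basophil markers was 3240 to 4450 in Ano1fl/fl and 728 to 1830 in Ctsk-Cre;Ano1fl/fl, with 4 lower and none higher, and that of 4 erythroid or megakaryocyte markers was 118000 to 131000 and 51000 to 60300, with all 4 lower. Such sums mostly follow their brightest probes. In the last sum this was *Pf4*, with log2 signals of 16.74, 16.90 and 16.91 against 15.80, 15.55 and 15.73. Of the 9 neutrophil markers 6 were lower and 1 was higher. For 6 dendritic cell markers the sum was 17900 to 18800 in Ano1fl/fl and 25400 to 28200 in Ctsk-Cre;Ano1fl/fl (3 higher, 1 lower). For 6 endothelial markers it was 6620 to 8200 and 3400 to 3970 (1 higher, 2 lower). For 8 macrophage markers it was 503000 to 522000 and 543000 to 598000 (1 higher, 2 lower). The part of these cell types in the members that rose or fell was not tested. In such cultures a change in the number of cells of one type and a change in the RNA of each cell cannot be told apart. Correlations of log2 signal across probes were 0.9941 to 0.9965 between arrays of a group and 0.944 to 0.9498 between the groups.

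Ligands of the TNF superfamily are mostly trimeric membrane proteins that can be shed, and each binds 1 or several receptors. The receptors have no enzyme activity of their own. Some recruit TRAF proteins, which lead to NF-κB and MAP kinases, and others carry a death domain and can start apoptosis. Osteoclasts depend on this family: RANKL (*Tnfsf11*), made by osteoblast-lineage cells, stromal cells and lymphocytes, binds RANK (*Tnfrsf11a*) on osteoclast precursors, RANK signals through TRAF6, and the secreted decoy receptor osteoprotegerin (*Tnfrsf11b*) captures RANKL. TNF adds to the formation of osteoclasts in inflammation.

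A probe entered the test when every array of one group, or of both, showed it well above background, and a gene was read from its brightest tested probe. By this, 43 of the 49 members were tested. On the Ctsk-Cre;Ano1fl/fl arrays 19 were higher and 10 were lower at an adjusted p under 0.05 (limma, Benjamini-Hochberg over all probes), and 14 did not pass. Of these, 1 of the 19 (*Tnfrsf11b*) and 1 of the 10 (*Tnfrsf17*) were above background on no array of the other group. Each entered the fit only through the group where it is high, so these 2 calls are descriptions. The members higher were 44.2% of those tested, against a background of 23.0% of the 20650 genes tested, and the members lower were 23.3%, against a background of 28.5%. More than 2-fold higher were 11 members, or 25.6% against a background of 9.90%, and more than 2-fold lower by the fitted value were 4, or 9.30% against a background of 7.20%. One of these 4, *Tnfrsf17*, was below the background mark in Ctsk-Cre;Ano1fl/fl and had a bound under 2-fold, which leaves 3 with a measured fall past 2-fold. The count of 4 was 1 with normexp background correction, 1 with the series matrix values and 2 without replicate 1 of Ano1fl/fl. Among the 11 higher, *Tnfrsf11b* had a bound of at least 11.6-fold, and *Cd70* was at 0.56 on the log2 scale with normexp, under 2-fold. The signals of the groups did not overlap in 33 members, or 76.7% against a background of 64.0%. The median log2 difference, Ctsk-Cre;Ano1fl/fl minus Ano1fl/fl, was 0.22 over the members and -0.06 over all genes.

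By role, and against the same backgrounds of 23.0% higher and 28.5% lower, 5 of 13 tested ligands were higher and 3 lower, with a median log2 difference of -0.13. Among the receptors, 11 of 22 were higher and 4 lower, with a median of 0.44, and these counts include *Tnfrsf11b* and *Tnfrsf17*. All 7 TRAF adaptors were tested, and 3 were higher and 2 lower, with a median of 0.09. The antisense RNA was lower.

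**Figure D1:**
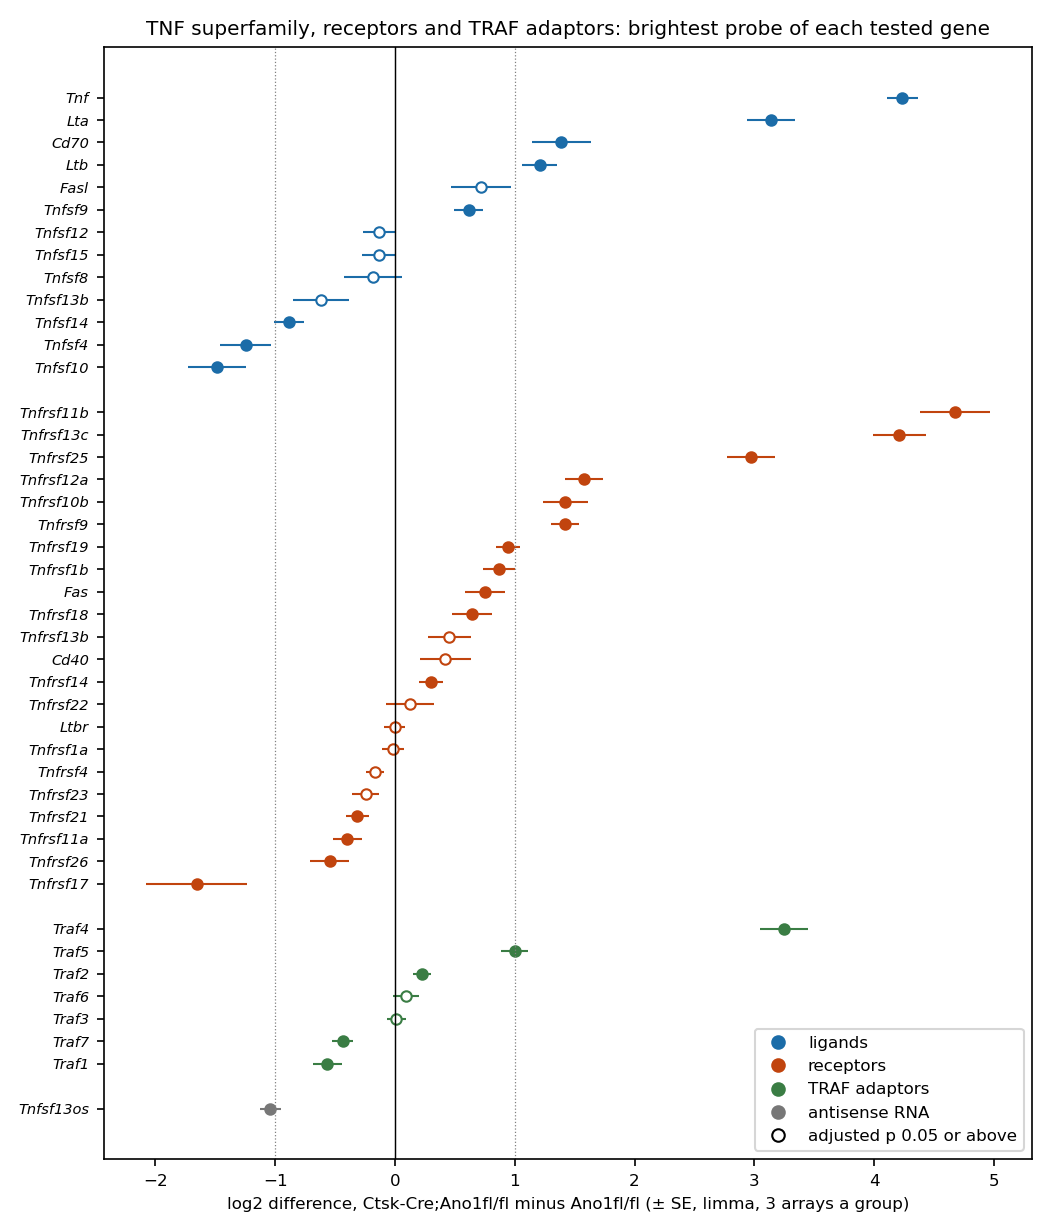
Each point is the log2 difference in signal (x axis, Ctsk-Cre;Ano1fl/fl minus Ano1fl/fl) of the brightest probe of one of the 43 tested members, with its SE from limma on 3 arrays a group, sorted within ligands, receptors, TRAF adaptors and the antisense RNA. Filled points passed an adjusted p of 0.05, dotted lines mark 2-fold, and the 11 members beyond the right line include 4 ligands, 6 receptors and 1 TRAF adaptor. *Tnfrsf11b*, at background in Ano1fl/fl, and *Tnfrsf17*, at background in Ctsk-Cre;Ano1fl/fl, are drawn at their fitted values.

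The RANKL axis was examined first. Neither of the 2 probes of *Tnfsf11* was well above background on an array, so the RNA of RANKL gave no measured level in these cultures, which received RANKL protein. Its first probe read 1.73, 2.78 and 2.60 on the log2 scale of normalized signal in Ano1fl/fl and 3.64, 3.36 and 2.82 in Ctsk-Cre;Ano1fl/fl, and its other probe 3.08, 1.95 and 2.45 against 3.84, 1.72 and 2.38. *Tnfrsf11a* had log2 signals of 13.35, 13.36 and 13.37 in Ano1fl/fl and of 12.79, 13.22 and 12.89 in Ctsk-Cre;Ano1fl/fl. The groups were apart by a small step, a log2 difference of -0.40 ± 0.12 (SE, n = 3 a group; adjusted p = 0.0339). The other probe of its RefSeq transcript did not pass (-0.10 ± 0.10), and a probe of an Ensembl transcript did (-0.58 ± 0.15). The call of the brightest probe was lost without any one of the 3 Ano1fl/fl arrays or without replicate 1 or 3 of Ctsk-Cre;Ano1fl/fl, where the log2 difference was -0.40 to -0.31 and the adjusted p 0.0785 to 0.0953.

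Osteoprotegerin went the opposite way by a large step. *Tnfrsf11b* (probe at chr15:54082760-54082819, mm9) had log2 signals of 3.42, 2.78 and 2.29 in Ano1fl/fl, where no array showed it well above background, and of 7.77, 7.27 and 7.49 in Ctsk-Cre;Ano1fl/fl, where all 3 did. With the processed signal it was therefore at least 11.6-fold higher in Ctsk-Cre;Ano1fl/fl, counted against the lowest signal that was well above background or the probe's own signal where that was higher. The probe entered the fit only through the Ctsk-Cre;Ano1fl/fl arrays, where it is high, so that its adjusted p of 7.59e-05 rests on signals near background in Ano1fl/fl and is given as a description. The log2 difference, 4.68 as fitted, was 1.68 with normexp background correction, whose offset raises dim signals, and 2.33 with the series matrix values, which hold no background subtraction, so the size of this rise depends on how background is treated. Osteoprotegerin is made by osteoblasts and stromal cells, and in the same samples 11 of the 12 stromal or osteoblast markers were higher and 1 was lower. Of these 11, 2 (*Lum* and *Pdgfra*) were well above background on no Ano1fl/fl array, so their calls are descriptions. *Col1a1*, the collagen gene of osteoblasts and fibroblasts, had log2 signals of 7.26, 7.08 and 6.78 in Ano1fl/fl and of 13.65, 13.02 and 12.82 in Ctsk-Cre;Ano1fl/fl. The part of these cells in the *Tnfrsf11b* signal was not tested.

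*Traf6*, the adaptor on which RANK relies, had 5 tested probes that did not give the same result. Its brightest probe had log2 signals of 9.22, 9.28 and 9.45 in Ano1fl/fl and of 9.37, 9.57 and 9.28 in Ctsk-Cre;Ano1fl/fl, and the groups overlapped (log2 difference 0.09 ± 0.11, adjusted p = 0.521). In the order of the probes along chromosome 2 (mm9), which is the direction of transcription, the log2 differences were 0.09 at base 101519206, -0.22 at 101526308, 0.26 at 101537964, 0.29 at 101540660 and 1.14 at 101542497. The first 2 did not pass and the last 3 did, with adjusted p of 0.0327, 0.0188 and 0.00116. At the last probe the signals were 6.88, 6.50 and 6.75 in Ano1fl/fl and 7.68, 8.09 and 7.79 in Ctsk-Cre;Ano1fl/fl, with no overlap. The probes also came from different transcript records. Only those at 101537964 and 101540660 were designed on the RefSeq transcript of *Traf6*, and both were among the 3 that passed, whereas the brightest probe was designed on another cDNA record.

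The TNF axis differed mainly in its ligand. *Tnf*, the founding cytokine of the family (probe at chr17:35336795-35336854, mm9), had log2 signals of 9.23, 9.56 and 9.32 in Ano1fl/fl and of 13.70, 13.70 and 13.41 in Ctsk-Cre;Ano1fl/fl. Every Ctsk-Cre;Ano1fl/fl array lay more than 3 log2 units above every Ano1fl/fl array, a log2 difference of 4.23 ± 0.13 (18.8-fold, adjusted p = 8.65e-06), and the other probe of the gene gave 4.12 ± 0.14. *Tnfrsf1a*, the death-domain receptor of TNF, did not pass with either probe, at log2 differences of -0.02 ± 0.09 and 0.17 ± 0.15. Its signals on the brightest probe were 14.19, 13.96 and 13.98 against 14.06, 14.07 and 13.95.

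*Tnfrsf1b*, the other TNF receptor, had log2 signals of 13.33, 13.02 and 13.09 in Ano1fl/fl and of 14.19, 14.04 and 13.82 in Ctsk-Cre;Ano1fl/fl and rose by 0.87 ± 0.13 (adjusted p = 0.00226). Its other probe, designed on a cDNA record rather than on the RefSeq transcript, did not pass (0.02 ± 0.15). *Traf2*, which links both lymphotoxin and TNF receptors to NF-κB, had signals of 14.17, 14.18 and 14.06 against 14.38, 14.32 and 14.38. The groups did not overlap, but the difference was 0.22 ± 0.08 (adjusted p = 0.0452), and the call was lost without any one of the 6 arrays, where the adjusted p was 0.0751 to 0.13.

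**Figure D2:**
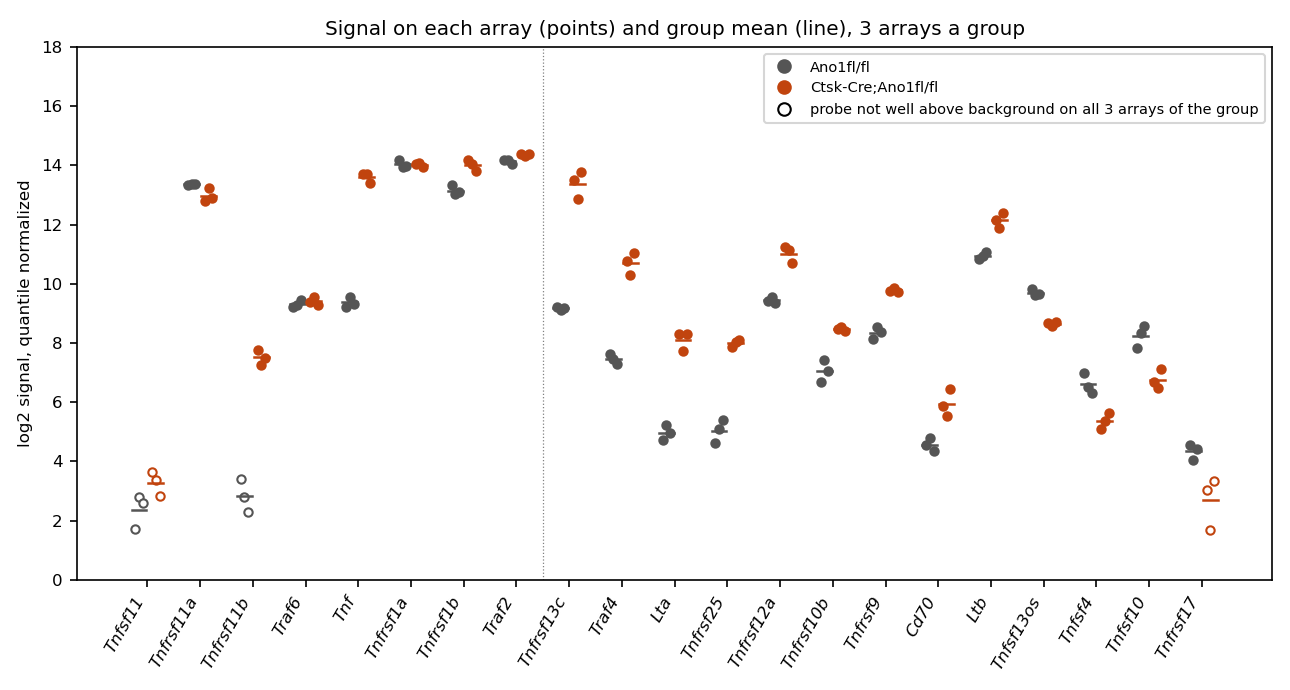
Points are log2 signals (y axis, quantile normalized) on each of the 3 arrays of a group and lines are group means, for the first listed probe of *Tnfsf11* and the brightest probe of the other genes of the RANKL and TNF axes (left of the dotted line) and of the other members past 2-fold (right). Open points mark probes that some array of that group did not show well above background, and signals of different genes are not on a common scale because each probe binds its target with its own strength.

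Among the ligands, 4 rose by more than 2-fold and 3 of these are neighbours. *Ltb*, *Tnf* and *Lta* lie next to each other in the major histocompatibility region, and their brightest probes span 7.2 kb (chr17:35333097-35340334, mm9). *Lta*, which encodes lymphotoxin alpha, had log2 signals of 4.72, 5.23 and 4.96 in Ano1fl/fl and of 8.30, 7.73 and 8.29 in Ctsk-Cre;Ano1fl/fl, a log2 difference of 3.14 ± 0.20 (8.82-fold, adjusted p = 8.36e-05) that was 1.87 with normexp and 2.24 with the series matrix values. *Ltb*, whose product holds lymphotoxin alpha at the membrane, had signals of 10.83, 10.93 and 11.06 against 12.17, 11.88 and 12.39, a difference of 1.21 ± 0.14 (2.31-fold, adjusted p = 0.000899). Neither gene overlapped between the groups.

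A further cluster on chromosome 17 did not move as one. The brightest probes of *Tnfsf9*, *Cd70* and *Tnfsf14* span 82.2 kb (chr17:57247062-57329251, mm9). *Cd70*, the ligand of CD27, had log2 signals of 4.54, 4.79 and 4.36 in Ano1fl/fl and of 5.88, 5.52 and 6.45 in Ctsk-Cre;Ano1fl/fl (difference 1.39 ± 0.25, adjusted p = 0.00421, and 0.56 with normexp). *Tnfsf9*, the ligand of 4-1BB, rose by 0.62 ± 0.12 on the log2 scale, whereas *Tnfsf14*, which encodes LIGHT, fell by 0.89 on the log2 scale (SE 0.12). Thus 2 of these 3 neighbours were higher and 1 was lower.

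The ligands that fell by more than 2-fold were *Tnfsf10* and *Tnfsf4*. *Tnfsf10*, the gene of the death ligand TRAIL, had log2 signals of 7.83, 8.33 and 8.58 in Ano1fl/fl and of 6.68, 6.47 and 7.12 in Ctsk-Cre;Ano1fl/fl (difference -1.49 ± 0.24, adjusted p = 0.00299). Its other probe did not pass, at -0.30 ± 0.18 and with overlapping groups, and the mean of both probes gave -0.89. *Tnfsf4*, the gene of the OX40 ligand, had signals of 6.98, 6.52 and 6.31 against 5.09, 5.35 and 5.63 (difference -1.25 ± 0.21, adjusted p = 0.00345), and its other probe gave -1.18 ± 0.24. That other probe was well above background on 2 of 3 Ctsk-Cre;Ano1fl/fl arrays and entered the fit through the Ano1fl/fl arrays. With normexp the difference of *Tnfsf4* was -0.62. The antisense RNA *Tnfsf13os* had signals of 9.81, 9.63 and 9.64 against 8.68, 8.58 and 8.70 (difference -1.04 ± 0.09, adjusted p = 0.000222). No probe carried the name of *Tnfsf13* itself.

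The other 5 tested ligands did not pass on their brightest probe. *Fasl*, the ligand of the death receptor Fas, was nearest to the threshold, with signals of 4.06, 4.23 and 4.32 against 4.78, 4.49 and 5.48 (difference 0.72 ± 0.25, adjusted p = 0.0506). *Tnfsf13b*, the B cell survival factor BAFF, had a difference of -0.62 ± 0.23 (adjusted p = 0.0657), and its other tested probe passed at -0.71 ± 0.21 (adjusted p = 0.0295). The differences of *Tnfsf12*, *Tnfsf15* and *Tnfsf8*, the genes of TWEAK, TL1A and CD30 ligand, were -0.13, -0.14 and -0.18 with overlapping groups. No array showed *Cd40lg* or *Tnfsf18* well above background, as for *Tnfsf11*.

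Large rises were also measured for *Tnfrsf13c* and *Tnfrsf25*. *Tnfrsf13c*, the BAFF receptor of B cells (probe at chr15:82052225-82052284, mm9), had log2 signals of 9.21, 9.13 and 9.18 in Ano1fl/fl and of 13.50, 12.88 and 13.77 in Ctsk-Cre;Ano1fl/fl. The difference was 4.21 ± 0.22 (18.5-fold, adjusted p = 4.29e-05), and the other probe of the gene gave 3.94 ± 0.29. That other probe was well above background on 2 of 3 Ano1fl/fl arrays and entered the fit through the Ctsk-Cre;Ano1fl/fl arrays. *Tnfrsf25*, the death-domain receptor DR3 (probe at chr4:151494160-151494219, mm9), had signals of 4.62, 5.08 and 5.39 against 7.85, 8.05 and 8.11, a difference of 2.97 ± 0.20 (7.84-fold, adjusted p = 1e-04) that was 1.72 with normexp and 2.17 with the series matrix values. In both genes all Ctsk-Cre;Ano1fl/fl arrays lay above all Ano1fl/fl arrays by more than 2 log2 units.

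The 3 receptors of BAFF did not move together. *Tnfrsf13b*, the gene of TACI, did not pass by its brightest probe (0.46 ± 0.18, adjusted p = 0.0696), but its other 2 probes rose by 1.64 ± 0.17 and 0.64 ± 0.14. *Tnfrsf17*, the gene of BCMA, which plasma cells carry, had signals of 4.56, 4.03 and 4.43 in Ano1fl/fl and of 3.03, 1.69 and 3.33 in Ctsk-Cre;Ano1fl/fl, where no array showed it well above background. Its signal was thus at least 1.26-fold lower in Ctsk-Cre;Ano1fl/fl. The probe entered the fit only through the Ano1fl/fl arrays, and its adjusted p of 0.0175 rests on signals near background in Ctsk-Cre;Ano1fl/fl. The call was lost with no filter on dim probes (adjusted p = 0.061) and without replicate 1 or 3 of Ano1fl/fl (adjusted p = 0.0607 and 0.0536). Of the 6 tested B cell markers, 5 were higher and 1 was lower on the Ctsk-Cre;Ano1fl/fl arrays. The part of B cells in these 3 receptors was not tested.

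Another 3 receptors rose by more than 2-fold. *Tnfrsf12a*, which encodes the TWEAK receptor Fn14, had log2 signals of 9.41, 9.57 and 9.35 in Ano1fl/fl and of 11.24, 11.13 and 10.69 in Ctsk-Cre;Ano1fl/fl (difference 1.58 ± 0.16, adjusted p = 0.000449). *Tnfrsf9*, the gene of the costimulatory receptor 4-1BB, had signals of 8.15, 8.54 and 8.37 against 9.74, 9.86 and 9.72 (difference 1.42 ± 0.12, adjusted p = 0.000212), and its other probe gave 1.64 ± 0.17. *Tnfrsf10b*, the TRAIL receptor DR5 of the mouse, had signals of 6.68, 7.44 and 7.05 against 8.48, 8.55 and 8.40 (difference 1.42 ± 0.19, adjusted p = 0.00134). The groups were apart in all 3. A dimmer probe of *Tnfrsf10b* read 0.47 ± 0.11 higher. Only 1 of 3 Ano1fl/fl arrays showed it well above background, so it entered the fit through the Ctsk-Cre;Ano1fl/fl arrays, where it is high.

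Smaller rises were seen for 4 receptors beside *Tnfrsf1b*. *Tnfrsf19*, the gene of TROY, rose by 0.94 ± 0.10 on its brightest probe, and a probe nearer the 3′ end of the gene, not well above background in Ano1fl/fl, read at least 3.99-fold higher in Ctsk-Cre;Ano1fl/fl. *Fas* rose by 0.75 ± 0.17, *Tnfrsf18* (GITR) by 0.64 ± 0.17 and *Tnfrsf14* (HVEM, a receptor of LIGHT) by 0.30 ± 0.10. The other *Tnfrsf14* probe, on the same RefSeq transcript, had the opposite sign and did not pass (-0.08 ± 0.10, adjusted p = 0.502). Another *Fas* probe on chromosome 19 did not pass (0.40 ± 0.20, adjusted p = 0.138). With the mean of all probes *Fas* gave 0.24 and lost its call. The call of *Tnfrsf14* was lost without replicate 1 or 2 of either group (adjusted p 0.0868 to 0.112), and that of *Tnfrsf18* without replicate 1 or 3 of Ano1fl/fl or replicate 1 of Ctsk-Cre;Ano1fl/fl (adjusted p 0.0519 to 0.0642).

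Besides *Tnfrsf11a* and *Tnfrsf17*, 2 receptors were lower. *Tnfrsf26* fell by 0.55 on the log2 scale (SE 0.17), and its call was lost without replicate 1 or 2 of Ano1fl/fl or replicate 2 or 3 of Ctsk-Cre;Ano1fl/fl (adjusted p 0.0692 to 0.0927). *Tnfrsf21*, the death receptor DR6, fell by 0.31 (SE 0.09), and its call held only without replicate 2 of Ctsk-Cre;Ano1fl/fl among the 6 arrays left out in turn (adjusted p 0.0581 to 0.0887 without any other). *Tnfrsf22* and *Tnfrsf23*, which encode decoy receptors of TRAIL, did not pass by their brightest probes, at 0.12 ± 0.20 and -0.24 ± 0.11. These 2 genes and *Tnfrsf26* are related in sequence and lie side by side (brightest probes within chr7:150793990-150851773, mm9), so that a probe may bind RNA of a neighbour, which was not tested.

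Of the other receptors, *Cd40*, which B cells and macrophages use to receive help from T cells, had a difference of 0.42 ± 0.21 (adjusted p = 0.141) with overlapping groups. *Tnfrsf4* (OX40) differed by -0.17 ± 0.07 (adjusted p = 0.0967), with groups that did not overlap. *Ltbr*, the lymphotoxin beta receptor, had signals of 12.12, 11.96 and 11.93 against 12.00, 12.08 and 11.92, a difference of 0.00 ± 0.09. *Cd27* and *Tnfrsf8* (CD30) stood well above background on none of the 6 arrays, and *Ngfr* did so on 2 Ctsk-Cre;Ano1fl/fl arrays and on no Ano1fl/fl array, which was too few for a test.

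Ligands were also set beside their known receptors. Both sides rose for 4-1BB, with its ligand at 0.62 and the receptor at 1.42, and for TNF with *Tnfrsf1b*, but *Tnfrsf1a* did not pass (-0.02). BAFF did not pass (-0.62) while its receptor *Tnfrsf13c* rose (4.21). The OX40 ligand fell (-1.25) while OX40 did not pass (-0.17), and *Fas* rose (0.75) while *Fasl* did not pass (0.72). TRAIL was lower (-1.49) and its receptor *Tnfrsf10b* higher (1.42). LIGHT was lower (-0.89) with its receptor HVEM slightly higher on its brightest probe (0.30) but not on its other probe (-0.08). Fn14 and DR3 rose by 1.58 and 2.97 while their ligands TWEAK and TL1A did not pass (-0.13 and -0.14). Both lymphotoxin genes rose while *Ltbr* did not pass, and CD70 rose while *Cd27* had no measured level. Several of these ligands are made by lymphocytes. Of the 11 T or NK cell markers 4 were higher and 2 lower, with a summed signal of 5290 to 5660 in Ano1fl/fl and 5710 to 7990 in Ctsk-Cre;Ano1fl/fl. Those higher were *Lck*, *Klrb1c*, *Ncr1* and *Gzmb*, by 2.67, 2.66, 2.17 and 1.72 on the log2 scale, and those lower were *Cd3e* (-0.51) and *Nkg7* (-1.77). The cell of origin of each RNA was not tested.

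Among the TRAF adaptors, *Traf4* differed by more than 2-fold. *Traf4*, a TRAF with known roles in development (probe at chr11:77972913-77972972, mm9), had log2 signals of 7.64, 7.45 and 7.30 in Ano1fl/fl and of 10.78, 10.31 and 11.05 in Ctsk-Cre;Ano1fl/fl. The groups were far apart, with a difference of 3.25 ± 0.20 (9.50-fold, adjusted p = 7.21e-05). *Traf5*, which acts with TRAF2, rose by 1.00 ± 0.11 (adjusted p = 0.000682), just under the 2-fold limit, and its other probe by 1.01 ± 0.10. *Traf1*, itself a target gene of NF-κB, fell by 0.57 on the log2 scale (SE 0.12), from signals of 14.24, 14.53 and 14.49 to 13.98, 13.68 and 13.91. *Traf3*, which restrains the noncanonical NF-κB pathway, had signals of 13.32, 13.21 and 13.14 against 13.24, 13.27 and 13.19, a difference of 0.01 ± 0.08 with overlapping groups. *Traf7* fell by 0.44 (SE 0.09) on its brightest probe and rose by 0.66 ± 0.15 on a dim probe near its 5′ end, and with the mean of both probes it gave 0.11 with an adjusted p of 0.432. The dim probe was well above background on 2 of 3 Ano1fl/fl arrays and entered the fit through the Ctsk-Cre;Ano1fl/fl arrays.

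The probes of a gene could thus be compared within the family. Of 24 members with 2 or more tested probes, all probes had the same sign in 17 and both signs in 7, and in 8 all probes passed in the same direction. Among these 8, *Tnfsf4*, *Tnfrsf10b*, *Tnfrsf13c* and *Tnfrsf19* each had a probe that entered the fit only through the group where it is high. Only *Traf7* had probes that passed in both directions. In 10 members some probes passed and others did not, among them *Traf6*, *Tnfrsf11a*, *Tnfrsf13b*, *Tnfrsf1b* and *Tnfsf10*. *Tnfrsf22* had one probe at -0.92 ± 0.13 that passed beside its brightest probe, which did not. *Fas* had 3 tested probes, and the one of opposite sign (-0.43 ± 0.17, adjusted p = 0.0782) was placed by the file on chromosome 4 while the other 2 lay on chromosome 19. It was the only case among the 49 gene names with probes on more than 1 chromosome.

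**Figure D3:**
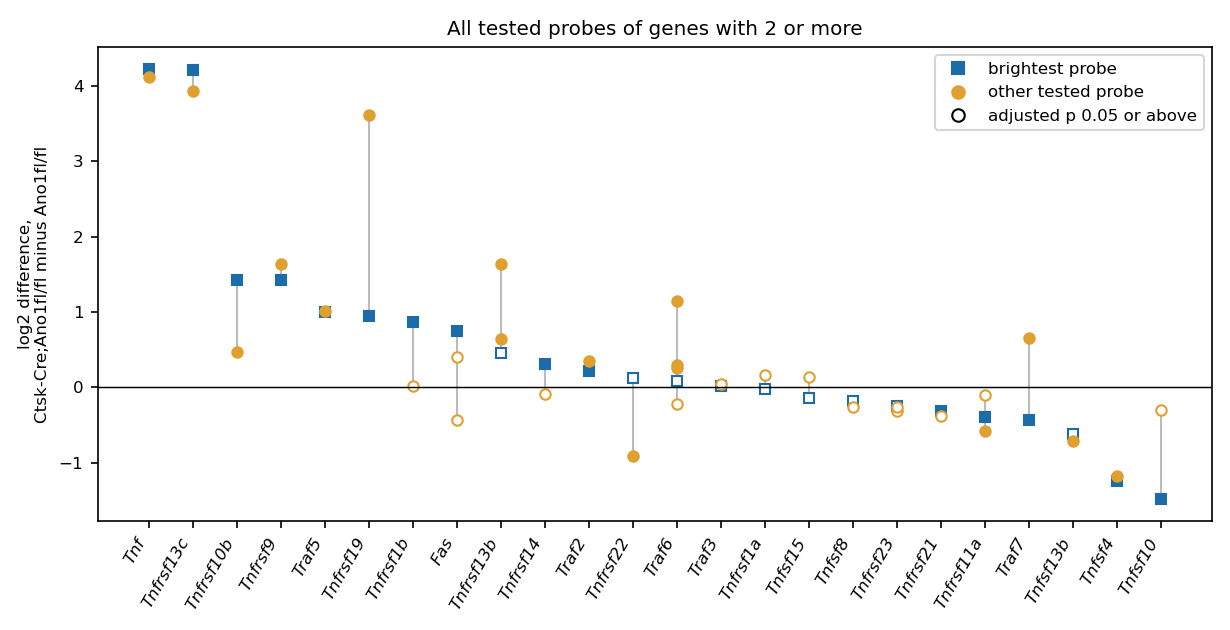
For each of the 24 members with at least 2 tested probes, the y axis gives the log2 difference (Ctsk-Cre;Ano1fl/fl minus Ano1fl/fl) of the brightest probe (square) and of the other tested probes (circles), joined by a grey line, with open symbols at an adjusted p of 0.05 or above. The probes of *Tnf*, *Tnfrsf13c*, *Traf5* and *Tnfsf4* lie close together, and those of *Tnfrsf19*, *Traf6*, *Tnfrsf13b* and *Tnfsf10* spread over more than 1 log2 unit.

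Promoters were read because many genes of the family are known targets of NF-κB, the factor that its receptors activate. RefSeq promoter windows (GRCm38.p6, 250 bases before to 50 after a start) were found for 38 of the 49 members. The kappa B consensus, which is 3 G, a purine, 2 bases of any kind, 2 pyrimidines and 2 C, was searched on both strands, and overlapping matches were joined. It was present for 5 members (13.2%), against 9.55% of the 27025 genes with a window and 8.46% of 32851 windows. These were *Ltb*, *Tnfrsf9* and *Tnfrsf25*, which were higher, *Traf3*, which did not pass, and *Tnfrsf8*, which was not tested. Of 15 members with a window that were higher 3 held the letters, of 7 that were lower 0, and of 11 that did not pass 1. The 250 bases before the start are shown for the 3 that were higher and for *Traf3*, with the matching letters in capitals, 5′ to 3′ on the strand of the gene (plus strand in all 4), at chr17:35194257-35194506 for *Ltb*, chr4:150927749-150927998 for *Tnfrsf9*, chr4:152116093-152116342 for *Tnfrsf25* and chr12:111166120-111166369 for *Traf3* (GRCm38.p6). *Tnfrsf9* and *Tnfrsf25* each have another window, from another start, that held no match and is not shown.
Ltb: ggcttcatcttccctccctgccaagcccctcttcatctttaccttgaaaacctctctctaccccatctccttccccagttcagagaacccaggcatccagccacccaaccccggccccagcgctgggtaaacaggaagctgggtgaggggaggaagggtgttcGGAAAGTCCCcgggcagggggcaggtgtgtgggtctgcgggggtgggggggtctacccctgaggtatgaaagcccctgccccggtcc
Tnfrsf9: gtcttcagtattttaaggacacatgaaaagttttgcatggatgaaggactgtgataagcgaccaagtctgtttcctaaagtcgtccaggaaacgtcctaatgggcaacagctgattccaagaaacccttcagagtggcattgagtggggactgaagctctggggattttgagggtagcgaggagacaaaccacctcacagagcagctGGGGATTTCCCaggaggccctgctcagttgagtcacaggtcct
Tnfrsf25: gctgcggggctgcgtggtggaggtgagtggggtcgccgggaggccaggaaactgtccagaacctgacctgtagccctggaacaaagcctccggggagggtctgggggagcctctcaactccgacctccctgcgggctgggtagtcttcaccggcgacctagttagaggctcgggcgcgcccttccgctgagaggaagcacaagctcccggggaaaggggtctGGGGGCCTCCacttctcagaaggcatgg
Traf3: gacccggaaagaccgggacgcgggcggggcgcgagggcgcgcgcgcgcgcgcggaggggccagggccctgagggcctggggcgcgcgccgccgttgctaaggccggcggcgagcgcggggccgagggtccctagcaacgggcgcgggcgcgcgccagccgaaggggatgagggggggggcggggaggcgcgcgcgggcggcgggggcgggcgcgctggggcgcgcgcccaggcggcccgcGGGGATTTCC
The windows of *Tnf* and *Lta* held no match in these 300 bases, although both rose more than *Ltb*. A match describes the letters of a window and not binding, and binding was not measured.

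The genes that act next to the receptors were listed apart from the members: 48 genes of the complexes at RANK and TNF receptors, of the kinases that follow and of NF-κB and its inhibitors. On the Ctsk-Cre;Ano1fl/fl arrays 19 were higher, 11 lower and 18 did not pass, against backgrounds of 23.0% and 28.5% over all genes, with a median log2 difference of 0.07 against -0.06 over all genes. More than 2-fold higher were 5 and more than 2-fold lower were 2, against backgrounds of 9.90% and 7.20%. *Map3k8* and *Cflar* were counted as higher by their brightest probes and each had another probe that passed as lower (-0.53 and -0.43). Some of the 18 that did not pass by their brightest probe had others that passed as lower, and none had one that passed as higher. These were probes of *Birc3* (-0.50, -0.68 and -0.56), *Cyld* (-1.44 and -0.70), *Ripk1* (-0.74), *Birc2* (-0.405) and *Map3k7* (-0.43). *Pawr*, a proapoptotic gene, was not well above background in Ano1fl/fl (1.73, 2.62 and 3.00) and was so in Ctsk-Cre;Ano1fl/fl (7.10, 7.12 and 6.71), at least 8.06-fold higher. It is the only gene of the 19 that no Ano1fl/fl array showed well above background, so its call is a description, and 18 of the 19 were called from probes measured on arrays of both groups. *Tnfaip3*, which encodes the deubiquitinase A20, had log2 signals of 11.67, 12.07 and 12.11 against 13.55, 13.57 and 13.49 (difference 1.58 ± 0.13), and *Tnip1*, the partner of A20, rose by 1.23 ± 0.08. These last 2 are feedback inhibitors of NF-κB.

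The falls in this list were led by *Traip*, a ubiquitin ligase of the replicating genome that also binds TRAF proteins, with a difference of -1.33 ± 0.15. *Map3k14*, the gene of the kinase NIK of the noncanonical pathway, had log2 signals of 11.48, 11.43 and 11.48 in Ano1fl/fl and of 10.40, 10.28 and 10.32 in Ctsk-Cre;Ano1fl/fl (difference -1.13 ± 0.07, adjusted p = 9e-05). Its other 2 probes gave -1.12 and -1.05. *Ripk3*, the kinase of necroptosis, fell by 0.97 on the log2 scale (SE 0.09). The count of lower genes was 7 without replicate 3 of Ano1fl/fl, and 7 to 10 over all arrays left out in turn.

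**Figure D4:**
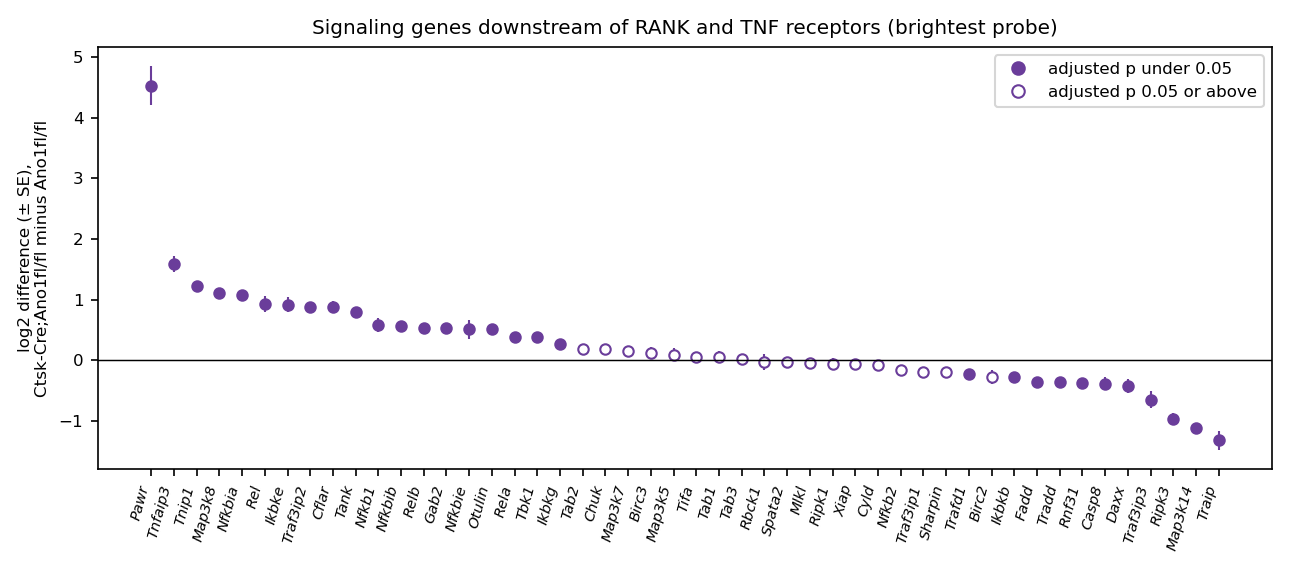
The log2 difference (y axis, Ctsk-Cre;Ano1fl/fl minus Ano1fl/fl, with its SE from limma on 3 arrays a group) is drawn for the brightest probe of the 48 signaling genes next to RANK and TNF receptors, sorted by size. Filled points passed an adjusted p of 0.05: 19 lie above 0, with *Tnfaip3* and *Tnip1* first among those measured in both groups and *Pawr*, at background in Ano1fl/fl, drawn at its fitted value, and 11 lie below 0, with *Traip*, *Map3k14* and *Ripk3* last.

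Genes that RANKL induces in osteoclasts were listed as well. The list holds all 9 osteoclast markers given above, so in part it repeats their result. Of 18 tested, 16 were higher and 2 lower, against backgrounds of 23.0% and 28.5% over all genes, with a median log2 difference of 2.18. The rises were led by *Calcr*, the calcitonin receptor gene (8.89 ± 0.19 as fitted, from signals near background in Ano1fl/fl, where 2 of 3 arrays showed it well above), *Oscar*, a costimulatory receptor gene (6.48 ± 0.17), and *Mmp9*, a matrix protease gene (4.36 ± 0.17), and the falls were *Fos* (-1.52) and *Mitf* (-0.56), both genes of transcription factors. *Nfatc1*, the gene of the factor that drives osteoclast formation, was counted as higher by its brightest probe (0.53 ± 0.09, adjusted p = 0.00395), but its other probe, designed on another RefSeq transcript, fell by 0.53 on the log2 scale (SE 0.13, adjusted p = 0.0138).

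The last list held genes outside the name rule that are tied to the family in different ways: ectodysplasin and RELT genes, which belong to it or act with it, genes named for their induction by TNF, C1q and TNF related genes, the sheddase gene *Adam17* and *Pglyrp1*. Of its 18 genes 14 were tested. Here 4 were higher, of which 2, *Tnfaip8l3* and *Eda*, entered the fit only through the Ctsk-Cre;Ano1fl/fl arrays and are described by bounds, and 5 were lower, against backgrounds of 23.0% and 28.5% over all genes, with a median log2 difference of -0.09. *Tnfaip8l3* was not well above background in Ano1fl/fl and was at least 2.01-fold higher in Ctsk-Cre;Ano1fl/fl by its brightest probe. *Tnfaip6*, a hyaluronan-binding protein induced by TNF, rose by 1.89 ± 0.28. *Eda*, the ligand ectodysplasin A, was not well above background in Ano1fl/fl (2.93, 3.66 and 3.38) and read 4.52, 4.45 and 4.25 in Ctsk-Cre;Ano1fl/fl, at least 1.35-fold higher. *Tnfaip2*, measured in both groups, rose by 1.02 ± 0.11. *Tnfaip8l1* (-1.74 ± 0.07), *Tnfaip8l2* (-0.79 ± 0.12) and *Pglyrp1* (-0.69 ± 0.11), a peptidoglycan-binding protein of neutrophil granules, were lower. Of the 9 neutrophil markers 6 were lower and 1 higher on the Ctsk-Cre;Ano1fl/fl arrays, and their part in the fall of *Pglyrp1* was not tested.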

How the data were processed

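For each of the 6 arrays the authors deposited scanner intensities made with Agilent Feature Extraction 10.7.1.1 (per the labels) on SurePrint G3 Mouse v2 slides, with probe positions on mm9. The processed signal used here is an intensity on a linear scale with background removed, not yet normalized between arrays. The series matrix the authors deposited holds the median intensity of each spot and was used as an alternative.

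Log2 of the processed signal was taken, outlier spots were left out, arrays were quantile normalized as the methods name, and spots of a probe were averaged. The 31848 probes that every array of one group, or of both, showed well above background were fitted with limma 3.58.1 in R 4.3.3 without covariates, and p-values were adjusted by Benjamini-Hochberg over all of them. A probe was called well above background on an array when a share of at least 0.5 of its spots carried that mark of the scanner software. A gene was read from its brightest tested probe. No control spot was used, and 14 probes lacking a value on some array were dropped. Between 33480 and 34951 of 59305 transcript spots were well above background, and none was saturated. The number of arrays limits the precision: for 1 gene, the smallest two-sided p of an exact permutation test is 0.1 with 3 arrays a group. The labels give 3 replicates a group, and the methods of the study give 3 mice a group.

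Promoter windows were searched in Python 3.11.15 with pandas 2.3.3, and all 49 names matched a RefSeq symbol. Values on every array were given for the RANKL and TNF axes and for each member past 2-fold, adjusted p under 0.05 and without overlap, and for other lists the 3 largest rises and falls by fitted value were named, with *Tnfaip2* added after its values were seen; single probes of a gene were singled out for their disagreement after their values were seen, as were *Col1a1* and the T or NK cell markers. The members and lists were chosen with earlier results of these data known.

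The replicate numbers of the labels were compared by correlating deviations from the group means. Alternatives were the 75th percentile in place of quantile, normexp with an offset of 50, the series matrix, other filters, a fold of 1.5, the mean over probes, 1 probe a gene, a trended robust fit, the methods' t-test, a replicate block, and leaving out each array.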

Additional observations from a re-analysis of the deposited data

How the results depend on the processing

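Of the 29 members that passed, 20 kept their call under every alternative that gave a value, among them *Tnf*, *Lta*, *Ltb*, *Tnfrsf13c*, *Tnfrsf25*, *Traf4* and *Traf5*. One of the 20, *Tnfrsf11b*, entered the fit only through the group where it is high and had no value when all 6 arrays had to be above background, so its kept call says nothing of stability. Differences of dim probes were smaller with normexp and the series matrix values, for example 1.87 and 2.24 for *Lta* in place of 3.14. Calls were lost under at least 1 alternative for *Tnfrsf11a*, *Tnfrsf14*, *Tnfrsf17*, *Tnfrsf18*, *Tnfrsf21*, *Tnfrsf26*, *Traf2*, *Fas* and *Traf7*. With a fold of 1.5, 17 of 43 members were higher past the fold in place of 11, against 14.8% of all genes tested. More than 2-fold lower was 1 member with normexp and 1 with the series matrix values in place of 4, and 2 to 4 over the arrays left out in turn (2 without Ano1fl/fl replicate 1). The proximal signaling genes that were lower numbered 11, and 7 to 10 over the arrays left out in turn (7 without Ano1fl/fl replicate 3). With the mean of all probes *Traf7* changed sign, to 0.11 (adjusted p = 0.432), since its 2 probes had opposite signs. Of the 29 calls, 24 held with no filter on dim probes, 29 with the methods' t-test at its unadjusted threshold and 24 after Benjamini-Hochberg, 27 with the 75th percentile, and 22 to 26 without an array.

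Same-numbered arrays of the groups did not deviate together (correlations of -0.022, -0.085 and -0.094), so the numbers are not taken to pair the samples. With the replicate block 25 of the 29 calls held, and those of *Tnfrsf11a*, *Tnfrsf14*, *Tnfrsf21* and *Traf2* were lost (adjusted p 0.0568 to 0.111). Probes near background, such as those of *Tnfsf11*, limit what can be said of their genes.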
